A study of Mus musculus with 18 samples.

Results

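The 10 genes described here are those through which cytotoxic T cells and natural killer (NK) cells recognise and kill target cells. They were chosen by name, by their known roles, with earlier results of these data known. They are the granule genes Gzmb, Gzma, Gzmk, Prf1 and Nkg7, the surface receptor genes Klrk1, Klrd1, Klrb1c and Ncr1, and the transcription factor gene Eomes. All 10 were found among the 49585 mouse genes of a table of read counts, and they were followed across 18 RNA-seq libraries in 6 groups of 3.

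Cytotoxic lymphocytes store perforin and granzymes in granules that are released onto a bound target, where perforin lets the granzymes, which are serine proteases, reach the target's cytoplasm. NK cells fire this machinery through a balance of activating and inhibitory receptors that need no rearranged antigen receptor, and CD8+ T cells, gamma delta T cells, invariant T cells and innate lymphoid cells share much of it. In skin and in the synovium such cells live beside more numerous myeloid cells and are recruited by inflammation, and some of them can leave again through afferent lymph.

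The cells came from 6- to 10-week-old Kaede mice of both sexes, whose ubiquitous transgenic protein turns from green to red in violet light and so marks the cells that were in an illuminated tissue. For the inflamed groups, per the study's methods, recipients of Th1-polarised OT-II CD4+ T cells were immunised with ovalbumin in complete Freund's adjuvant and challenged 10 days later with 100 µg of heat-aggregated ovalbumin in the footpad (joint) or the ear pinna (skin). The tissue was photoconverted on day 3 of the response and collected 24 h later. Live CD45+ cells that were Kaede red were sorted either from the tissue itself (nonmigrated) or from its draining lymph node (migrated). Joint steady state and skin steady state are labelled as migrated cells of the same 2 routes without inflammation. Their titles differ: those of joint steady state carry PBS and KG, and those of skin steady state the word Naive, whereas the inflamed skin titles carry KR. The sources used here spell out neither KG nor KR, and do not say whether the steady state mice had received T cells or been immunised, or which Kaede colour was sorted from them. Joint and skin steady state thus differ in their titled treatment as well as in site, and these cannot be told apart. Each inflamed library is a pool of 8 to 18 mice, so that p-values measure the spread between 3 pools and not between animals, and the number of mice behind a steady state library is not given in the sources used here. Every gated CD45+ cell type is in the same library, and throughout, fewer cells of a type and less RNA per cell cannot be told apart.

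On the mm10 assembly the genes lie on 6 chromosomes. Gzma (chr13:113093825-113100981, minus strand) and Gzmk (chr13:113171608-113225908, minus strand) were 70626 bp apart. Klrd1 (chr6:129591782-129598775, plus strand) and Klrk1 (chr6:129610323-129623864, minus strand) were 11547 bp apart in the NK gene complex, 802566 bp from Klrb1c (chr6:128778485-128789215, minus strand). The others were at chr14:56258838-56262260 (Gzmb, minus strand), chr10:61297833-61304680 (Prf1, plus strand), chr7:43437073-43438249 (Nkg7, plus strand), chr7:4337724-4345164 (Ncr1, plus strand) and chr9:118478212-118486132 (Eomes, plus strand). Klrb1c shares 413 exonic bp with Gm44511 on the same strand (0 to 13 reads per library), and Eomes shares 118 exonic bp with the antisense gene Gm33460 (0 to 46 reads). Whether the counting used strand is not given in the sources used here.

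The promoters of Prf1, Gzma and Gzmb are shown because these genes encode the products that act together in 1 granule, and the ratios of their transcripts are described below. Each is the 250 bases before the RefSeq transcription start on GRCm38.p6, 5′ to 3′ on the gene's strand: Prf1 chr10:61297586-61297835, Gzma chr13:113100982-113101231 (minus strand) and Gzmb chr14:56262335-56262584 (minus strand). Capitals mark 2 short motifs, searched on both strands and so also shown as their reverse complements. One is the half-site AGGTGT of T-box factors such as Eomes and T-bet. The other is the motif TGTGGT of Runx factors.
Prf1: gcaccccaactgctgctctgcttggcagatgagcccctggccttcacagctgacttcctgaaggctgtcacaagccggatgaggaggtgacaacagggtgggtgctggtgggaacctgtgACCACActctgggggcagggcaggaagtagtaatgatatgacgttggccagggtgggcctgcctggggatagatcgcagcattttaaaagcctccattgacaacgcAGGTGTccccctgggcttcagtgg
Gzma: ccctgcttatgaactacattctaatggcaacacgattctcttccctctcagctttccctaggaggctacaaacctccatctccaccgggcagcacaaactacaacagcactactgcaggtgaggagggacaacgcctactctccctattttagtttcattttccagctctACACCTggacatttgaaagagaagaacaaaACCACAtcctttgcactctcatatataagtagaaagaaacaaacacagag
Gzmb: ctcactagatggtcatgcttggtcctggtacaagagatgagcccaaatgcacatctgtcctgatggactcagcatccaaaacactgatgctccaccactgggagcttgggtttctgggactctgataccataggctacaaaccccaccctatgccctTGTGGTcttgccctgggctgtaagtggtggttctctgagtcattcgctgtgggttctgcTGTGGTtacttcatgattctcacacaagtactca
The T-box half-site stood once in the Prf1 and once in the Gzma sequence and did not occur in that of Gzmb, which held 2 Runx motifs against 1 in each of the others. In windows that also include the 50 bases after the start, the half-site was found for 4 of the 9 genes matched in the RefSeq table (Nkg7, Prf1, Gzma and Gzmk) and in 13.7% of 32851 mouse promoter windows. The Runx motif was found for 7 of the 9 genes (all but Eomes and Gzmk) and in 16.8% of windows. The motifs can overlap by 3 letters and did not in the sequences shown. Such matches are a description of letters and not of bound sites.

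Libraries held 19239531 to 43814403 reads assigned to genes, with the 6 inflamed skin libraries the shallowest (19239531 to 22528895). All 6 also share a column naming pattern of their own, which neither the joint nor the skin steady state libraries have. The skin steady state libraries were also deeper (28577566 to 40055171). Any separate handling thus cannot be told apart from site among the inflamed libraries. In skin it cannot be told apart from inflammation when migrated and steady state libraries are compared. Levels are given as CPM, counts scaled to a common library size, on library sizes adjusted by the trimmed mean of M values (TMM). Each of the 10 genes had 19 to 10263 reads in every library, above the floor of 3 reads (0.0616 to 0.180 CPM), and all 10 entered every test. Ptprc, which encodes the CD45 of the sort, was at 1155 to 2530 CPM in all 18 libraries. The skin nonmigrated libraries varied most: the summed level of the 10 genes was 351.9 to 1117 CPM in that group. It was 185.9 to 266.4 CPM in the joint nonmigrated group, 722.4 to 891.5 in skin migrated and 567.8 to 924.9 in joint migrated libraries, and 242 to 300.1 (joint) and 269.2 to 277.6 (skin) at steady state. Skin nonmigrated replicate 2 was the highest of its group for all 10 genes, and the results of these genes that it moved are also given without it. Over all genes, replicate 3 was the least like the others of that group. Its Pearson r of log2 counts was 0.958 and 0.944 with replicates 1 and 2, against 0.979 between those.

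**Figure D1:**
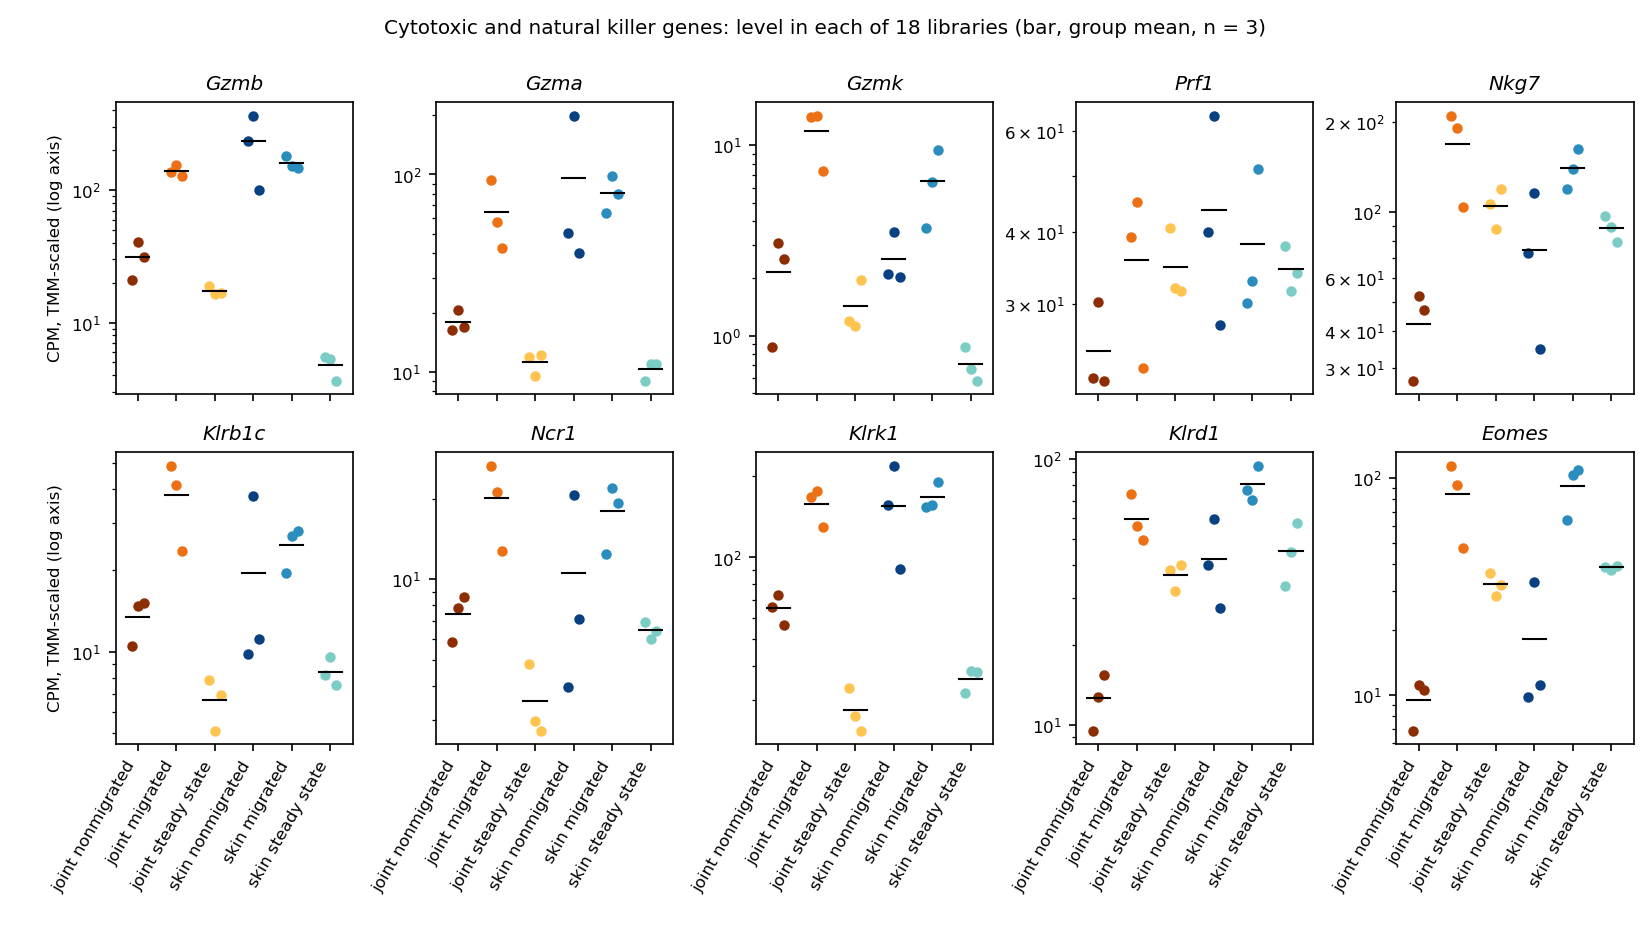
Level of each of the 10 genes in CPM (log axis) in the 18 libraries, by group, each point a library and each bar the mean of 3. Eomes sat at 6.84 to 11.1 CPM in joint nonmigrated and at 47.4 to 114.1 in joint migrated libraries, whereas Prf1 stayed between 22.1 and 63.8 CPM in all 18.

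Gzmb (ENSMUSG00000015437), the granzyme that cleaves after aspartate and activates caspases, had the widest range of the 10. It was at 20.8, 40.9 and 31.3 CPM in joint nonmigrated and at 137.5, 155.5 and 128 CPM in joint migrated libraries. In skin it was at 233.4, 366.3 and 99.98 CPM in nonmigrated and 180, 151.2 and 147.5 CPM in migrated libraries. At steady state it was at 18.9, 16.3 and 16.8 CPM (joint) and 5.49, 5.32 and 3.63 CPM (skin). All inflamed skin and joint migrated libraries thus stood above all joint nonmigrated ones, which in turn lay above both steady state groups without overlap, and the skin steady state libraries were the lowest of all.

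Gzma, which encodes a tryptase-like granzyme, was at 16.4, 20.5 and 16.9 CPM in joint nonmigrated and at 93.4, 57.3 and 42.5 CPM in joint migrated libraries. In skin it was at 50.4, 198.5 and 40.2 CPM in nonmigrated and 64.0, 98.5 and 79.6 CPM in migrated libraries. At steady state the values were 11.9, 9.62 and 12.2 CPM (joint) and 9.06, 11.1 and 11.03 CPM (skin). The joint nonmigrated libraries were above every steady state library and below every other inflamed one, and the skin nonmigrated value of 198.5 CPM stood alone.

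Gzmk, whose granzyme is found mainly in memory-like CD8+ T cells, was the lowest of the 10 per length in every group. In CPM it was at 0.875, 3.06 and 2.53 CPM in joint nonmigrated, 14.1, 14.3 and 7.33 in joint migrated, 2.10, 3.51 and 2.03 in skin nonmigrated and 3.68, 6.39 and 9.48 in skin migrated libraries. It was at 1.20, 1.13 and 1.95 CPM in joint steady state and 0.875, 0.671 and 0.580 CPM in skin steady state libraries. Migrated libraries were above nonmigrated ones at both sites, though in skin only narrowly.

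Prf1, which encodes the pore-forming protein perforin, varied least. Its values were 22.3, 30.3 and 22.1 CPM in joint nonmigrated, 39.2, 45.1 and 23.2 in joint migrated, 40.1, 63.8 and 27.6 in skin nonmigrated and 30.1, 32.9 and 51.5 in skin migrated libraries. They were 40.7, 32.02 and 31.6 CPM in joint steady state and 37.9, 31.7 and 34.0 CPM in skin steady state libraries. Every group overlapped the others except that joint nonmigrated lay below both steady state groups.

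Nkg7, which encodes a granule membrane protein needed for degranulation, was at 27.2, 52.1 and 47.0 CPM in joint nonmigrated and 210.7, 192.1 and 103.9 CPM in joint migrated libraries. In skin it was at 73.0, 116.2 and 34.8 CPM in nonmigrated and 119.3, 139.3 and 162.1 CPM in migrated libraries. The steady state libraries, at 106.6, 88.0 and 119.1 (joint) and 96.9, 89.1 and 79.6 CPM (skin), stood above all joint nonmigrated libraries, unlike those of Gzmb and Gzma.

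Klrk1 encodes the activating receptor NKG2D, which binds stress-induced ligands. It was at 65.6, 73.0 and 56.4 CPM in joint nonmigrated, 166.8, 175 and 129.4 in joint migrated, 156.4, 217.9 and 90.3 in skin nonmigrated and 152.8, 156 and 190.3 in skin migrated libraries. At steady state it was at 33, 26.2 and 23.03 CPM (joint) and 31.6, 38.1 and 37.8 CPM (skin), below every inflamed library.

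Klrd1 encodes CD94, the partner chain of the NKG2 receptors that read the nonclassical class I molecule Qa-1. It was at 9.52, 12.8 and 15.5 CPM in joint nonmigrated, 73.8, 56.1 and 49.8 in joint migrated, 40, 59.6 and 27.5 in skin nonmigrated and 76.6, 70.1 and 94.8 in skin migrated libraries. At steady state it was at 38.4, 32.02 and 40.0 CPM (joint) and 33.3, 44.9 and 57.5 CPM (skin). Joint nonmigrated was its lowest group, below every other library.

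Klrb1c, which encodes the NK1.1 antigen, and Ncr1, which encodes the activating receptor NKp46, are the most NK-restricted of the receptors. Klrb1c was at 10.48, 14.8 and 15.2 CPM in joint nonmigrated, 48.7, 41.3 and 23.5 in joint migrated, 9.83, 37.8 and 11.2 in skin nonmigrated, 19.5, 26.7 and 27.9 in skin migrated, 7.83, 5.10 and 6.92 in joint steady state and 8.21, 9.56 and 7.54 in skin steady state libraries. Ncr1 was at 5.85, 7.84 and 8.57 CPM in joint nonmigrated, 26.6, 21.2 and 12.8 in joint migrated, 3.96, 20.7 and 7.12 in skin nonmigrated, 12.5, 21.97 and 19.3 in skin migrated, 4.83, 2.97 and 2.73 in joint steady state and 6.95, 5.97 and 6.44 in skin steady state libraries. For both, 1 of the 3 skin nonmigrated libraries was at the migrated level and the other two at or below the joint nonmigrated level.

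Eomes, which encodes the T-box factor of mature NK cells and memory CD8+ T cells, was at 6.84, 11.1 and 10.6 CPM in joint nonmigrated and 114.1, 92.4 and 47.4 CPM in joint migrated libraries. In skin it was at 9.83, 33.1 and 11.2 CPM in nonmigrated and 63.9, 103.4 and 108.9 CPM in migrated libraries. At steady state it was at 36.7, 28.6 and 32.01 CPM (joint) and 38.9, 37.8 and 39.4 CPM (skin). The 9 node libraries other than joint steady state ones thus exceeded all 6 tissue libraries, and the migrated inflamed libraries were the highest.

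Per length, as CPM per kilobase of exon (RPKM), Nkg7 had the highest mean level of the 10 in every group but skin nonmigrated, at 46.1 RPKM in joint nonmigrated, 184.8 in joint migrated, 153.4 in skin migrated, 114.5 in joint steady state and 96.9 in skin steady state libraries. Gzmb led in skin nonmigrated libraries at 162.4 RPKM and was the next in joint nonmigrated (21.6), joint migrated (97.7) and skin migrated (111.1) libraries. At steady state Klrd1 followed Nkg7 (28.8 RPKM in joint and 35.3 in skin libraries), and Gzmb had fallen in rank to 12.1 RPKM in joint and 3.36 RPKM, the eighth of 10, in skin.

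The first comparison asked how the cells that had left the inflamed joint for its node differed from those that stayed. Of the 10 genes, 3 rose in joint migrated over joint nonmigrated libraries at an adjusted p under 0.001 and an absolute log2 fold change over 1, where 8.80% of all genes tested were called higher. Eomes rose 8.93-fold (log2 fold change 3.16 ± 0.48 SE, edgeR adjusted p = 0.000193), Klrd1 rose 4.77-fold (2.25 ± 0.28, edgeR adjusted p = 4.28e-05) and Gzmb rose 4.53-fold (2.18 ± 0.38, edgeR adjusted p = 0.000513). All but Prf1 (9 of 10) had 3 migrated libraries above the 3 nonmigrated ones, as did 32.9% of all genes tested.

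The other granule genes and receptors had fold changes of similar size with adjusted p between 0.001 and 0.05. Gzmk was at 5.55-fold (log2 2.47 ± 0.48, edgeR adjusted p = 0.00107), Nkg7 at 4.02-fold (2.01 ± 0.41, edgeR adjusted p = 0.00137) and Gzma at 3.59-fold (1.85 ± 0.52, edgeR adjusted p = 0.0102). Klrb1c differed by 1.49 ± 0.45 (edgeR adjusted p = 0.0151), Ncr1 by 1.44 ± 0.49 (edgeR adjusted p = 0.026) and Klrk1 by 1.27 ± 0.26 (edgeR adjusted p = 0.00139) on the log2 scale. Only Prf1, at 0.53 ± 0.33 (edgeR adjusted p = 0.191), missed the threshold of 0.05, at which 9 of the 10 genes and 16.0% of all genes tested were called higher. The median log2 change over the 10 genes was 1.93, against 0.02 over all genes tested.

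The count at 0.001 moved with single libraries: it was 1 (Klrd1) without any of the 3 joint nonmigrated libraries, where Gzmb and Eomes lost their calls at adjusted p of up to 0.0033, and 7 and 5 without skin nonmigrated replicates 2 and 3, which enter only through the shared estimate of spread. Gzmb also lost its call without any of the 3 joint migrated libraries. Over all genes, calls in either direction were 2615 to 3107 without a joint nonmigrated library, against 3586 with all libraries. They were 3658 and 4048 without skin nonmigrated replicates 2 and 3. Cells of other types shifted in the same comparison, and their part in the changes of the 10 genes was not tested. All 8 alpha beta T cell markers rose (summed level 193.1 to 389 CPM in nonmigrated and 1641 to 2221 in migrated libraries), all 5 neutrophil markers fell (4892 to 15040 and 31.0 to 79.6 CPM) and all 5 macrophage and monocyte markers fell (15770 to 19210 and 134.6 to 313.1 CPM). Of 6 gamma delta and invariant T cell markers, 5 rose (27.9 to 53.6 and 217.5 to 366.9 CPM).

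**Figure D2:**
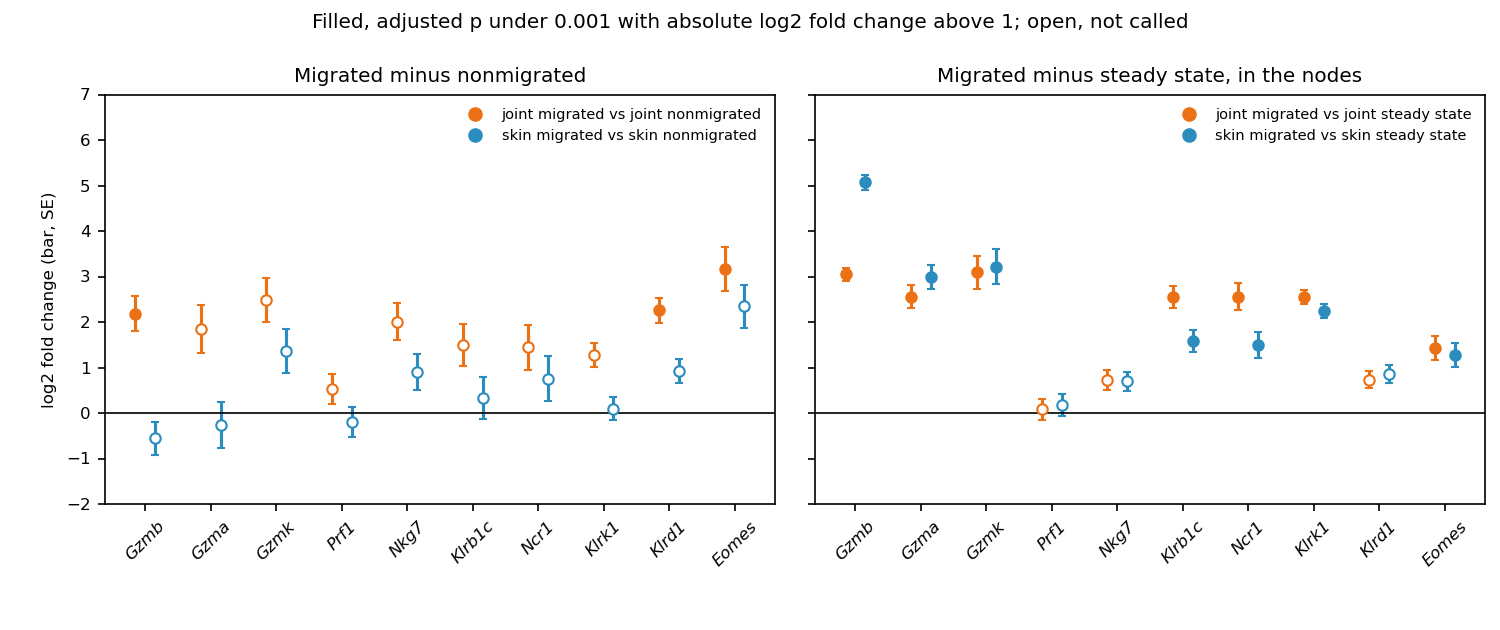
Log2 fold change of the 10 genes ± SE for migrated against nonmigrated cells and for migrated against steady state cells, at each site, with filled points for genes past the threshold. Of the 10, 3 are filled for joint migration, none for skin migration and 7 for each comparison with steady state, where Prf1 lies near 0 at both sites.

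In skin, none of the 10 genes passed in migrated against nonmigrated libraries (0 of 10, where 20.9% of all genes tested were called in either direction by edgeR). Eomes came nearest, at 5.08-fold (log2 2.35 ± 0.47, edgeR adjusted p = 0.00124), followed by Klrd1 (0.92 ± 0.27, edgeR adjusted p = 0.012) and Gzmk (1.35 ± 0.48, edgeR adjusted p = 0.0315). With the threshold of 0.05 and the same fold limit, 2 genes (Eomes and Gzmk) were called higher, against 15.7% of all genes tested. Unlike in joint, Gzmb (−0.55 ± 0.37, edgeR adjusted p = 0.216), Gzma (−0.26 ± 0.50, edgeR adjusted p = 0.678) and Prf1 (−0.20 ± 0.33, edgeR adjusted p = 0.618) had negative values. The rest lay between 0.10 (Klrk1) and 0.90 (Nkg7) on the log2 scale. In the CPM values, 4 genes (Nkg7, Gzmk, Klrd1 and Eomes) had migrated libraries above all nonmigrated ones, as did 31.4% of all genes tested.

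Skin nonmigrated replicate 2 decided part of this. Without it Eomes was called (log2 3.13, edgeR adjusted p = 8.82e-05), and Ncr1 (1.69, edgeR adjusted p = 0.00343) and Klrb1c (1.23, edgeR adjusted p = 0.0057) had larger positive values. Gzma (0.83, edgeR adjusted p = 0.0355) and Prf1 (0.18) turned from negative to positive, while Gzmb was at −0.06 (edgeR adjusted p = 0.887). Eomes was also called without joint migrated replicate 3 (edgeR adjusted p = 0.000987). Of the alpha beta T cell markers 4 of 8 rose (328.6 to 908.9 CPM in nonmigrated and 1868 to 1985 in migrated libraries), and none of the 6 gamma delta and invariant T cell markers passed (106.3 to 314.9 and 178.5 to 251.9 CPM). Neutrophil markers (1308 to 2333 and 11.6 to 23.4 CPM) and macrophage and monocyte markers (2786 to 9559 and 277.4 to 495.7 CPM) all fell, and the part of these shifts in the members' values was not tested.

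The difference between the 2 migration changes was tested as an interaction. None of the 10 genes passed the threshold, and 0.119% of all genes tested did in either direction by edgeR. With adjusted p under 0.05, Gzmb alone of the 10 did, against 3.96% of all genes called higher in joint: its change in joint exceeded that in skin by 2.73 ± 0.53 on the log2 scale (edgeR adjusted p = 0.0113). It was called without skin nonmigrated replicate 3 (3.09, edgeR adjusted p = 0.000268) and stood at 2.25 (edgeR adjusted p = 0.0181) without replicate 2. Over all genes, calls in either direction also rose without replicate 3, from 20 of 16777 to 330 of 17931. Next were Gzma (2.11 ± 0.72, edgeR adjusted p = 0.0945), Klrd1 (1.33 ± 0.38, edgeR adjusted p = 0.0547) and Klrk1 (1.18 ± 0.36, edgeR adjusted p = 0.0684). All 10 had positive values, with a median of 1.14, but some depended on skin nonmigrated replicate 2. Without it Ncr1 was at −0.24, Eomes at 0.03, Klrb1c at 0.26 and Gzma at 1.01. The others also stayed positive without it, at 0.35 (Prf1) to 2.25 (Gzmb).

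Among the cells that stayed in the tissue, Gzmb was lower in joint than in skin, and it was the 1 gene of the 10 that passed, where 1.90% of all genes tested were called lower. Its level in joint was 0.132 of that in skin (log2 −2.92 ± 0.39, edgeR adjusted p = 0.000487), without overlap. Gzma (−2.43 ± 0.53, edgeR adjusted p = 0.00671), Klrd1 (−1.76 ± 0.28, edgeR adjusted p = 0.00117) and Klrk1 (−1.26 ± 0.26, edgeR adjusted p = 0.00489) likewise did not overlap between the sites, as was so of 19.7% of all genes tested with joint lower. These 4 were called at 0.05, against 8.86% of all genes tested. The other 6 had log2 differences of −0.25 (Gzmk) to −0.93 (Eomes) and adjusted p of 0.084 or more in edgeR's fit. Without skin nonmigrated replicate 2, Klrb1c (0.35), Ncr1 (0.41) and Gzmk (0.05) turned positive, Eomes was at −0.15 and Gzma at −1.34 (edgeR adjusted p = 0.0112). The call of Gzmb was lost without any 1 of 9 of the 12 libraries: the 3 joint nonmigrated, the 3 skin migrated, skin nonmigrated replicates 1 and 2 and joint migrated replicate 2 (edgeR adjusted p of 0.00101 to 0.0034). It was also lost when only the 6 libraries compared were fitted, but there 0 of all 15385 genes tested passed. Without skin nonmigrated replicate 3, Gzma, Klrk1 and Klrd1 were called besides Gzmb (edgeR adjusted p of 0.000125 to 0.000999). Calls over all genes in either direction then numbered 1372 of 17931, against 511 of 16777 with all libraries. All 8 alpha beta T cell markers had lower values in joint (median log2 −1.21), of which 0 passed at 0.001 and 6 were called at 0.05. Of the gamma delta and invariant T cell markers 2 of 6 were lower in joint (27.9 to 53.6 CPM in joint and 106.3 to 314.9 in skin libraries), namely Tcrg-C1 (log2 −3.71) and Trdc (−3.11). All 4 B cell markers (75.3 to 211 and 1.08 to 2.96 CPM) and 2 of 5 neutrophil markers (4892 to 15040 and 1308 to 2333 CPM) were higher in joint, and the part of these shifts in the members' values was not tested.

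Among the cells that had reached the node the 10 genes did not differ detectably between joint and skin. No gene of the genome-wide fit passed (0 of 16777, or 0%, by edgeR at 0.001, although 2770 genes had an unadjusted p under 0.05, 191 passed at an adjusted p under 0.05 and DESeq2's Wald test called 177). Among the 10, Gzmk differed most (0.87 ± 0.46 higher in joint on the log2 scale, edgeR adjusted p = 0.373), then Klrb1c (0.62, edgeR adjusted p = 0.532) and Klrd1 (−0.42, edgeR adjusted p = 0.461). The others lay between −0.32 (Gzma) and 0.27 (Nkg7). All 10 had overlapping libraries, whereas 28.2% of all genes tested did not overlap in either direction.

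The next question was how migrated cells of the inflamed sites differed from those of the steady state. In joint, 7 of the 10 genes rose, where 12.4% of all genes tested did. Gzmk rose 8.50-fold (log2 3.09 ± 0.37, edgeR adjusted p = 1.28e-05), Gzmb 8.28-fold (3.05 ± 0.14, edgeR adjusted p = 4.76e-09) and Gzma 5.87-fold (2.55 ± 0.25, edgeR adjusted p = 2.34e-06). Of the receptors, Klrk1 rose 5.87-fold (2.55 ± 0.16, edgeR adjusted p = 4.03e-08), Ncr1 5.89-fold (2.56 ± 0.29, edgeR adjusted p = 9.07e-06) and Klrb1c 5.85-fold (2.55 ± 0.25, edgeR adjusted p = 2.32e-06). Eomes rose 2.67-fold (1.42 ± 0.26, edgeR adjusted p = 0.000569). Klrd1 (0.74 ± 0.20, edgeR adjusted p = 0.00706), Nkg7 (0.72 ± 0.21, edgeR adjusted p = 0.0126) and Prf1 (0.08 ± 0.23, adjusted p = 0.80 in edgeR's fit) did not pass. In 8 genes, all but Prf1 and Nkg7, the inflamed libraries were all above the steady state ones, as in 28.1% of all genes tested.

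In skin the same 7 genes rose, where 16.6% of all genes tested did. Here inflammation and any separate handling of the inflamed skin libraries cannot be told apart. Gzmb rose most of the 10, 33.6-fold (log2 5.07 ± 0.16, edgeR adjusted p = 2.4e-10). Gzmk rose 9.30-fold (3.22 ± 0.39, edgeR adjusted p = 9.8e-06), Gzma 7.95-fold (2.99 ± 0.26, edgeR adjusted p = 3.64e-07) and Klrk1 4.74-fold (2.25 ± 0.16, edgeR adjusted p = 5.07e-08). Klrb1c rose 2.99-fold (1.58 ± 0.25, edgeR adjusted p = 8.82e-05), Ncr1 2.83-fold (1.50 ± 0.28, edgeR adjusted p = 0.000421) and Eomes 2.43-fold (1.28 ± 0.26, edgeR adjusted p = 0.000813). Klrd1 (0.86 ± 0.20, edgeR adjusted p = 0.00181), Nkg7 (0.70 ± 0.22, edgeR adjusted p = 0.0122) and Prf1 (0.18 ± 0.23, edgeR adjusted p = 0.519) did not pass. In 9 genes, all but Prf1, the inflamed libraries were above all steady state ones, as in 35.3% of all genes tested.

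The migrated inflamed libraries are shared with the comparisons against nonmigrated cells, so that these sets of values are not independent. Eomes was the least firm: in joint it lost its call without any 1 of 8 of the 12 libraries (joint migrated replicates 1 and 2 and all 6 steady state libraries, edgeR adjusted p of 0.00117 to 0.00502), and in skin without any 1 of 9 (joint migrated replicate 2, skin migrated replicates 2 and 3 and all 6 steady state libraries, edgeR adjusted p of 0.00171 to 0.00605). In skin Ncr1 lost its call without joint migrated replicate 2, skin migrated replicates 2 or 3 or any skin steady state library (edgeR adjusted p of 0.00102 to 0.00393) and Klrb1c without skin steady state replicate 3 (edgeR adjusted p = 0.00115), whereas Klrd1 was called without that library (log2 1.03, edgeR adjusted p = 0.000914). None of the 8 alpha beta T cell markers was called in either comparison (1641 to 2221 CPM in joint migrated, 1888 to 2289 in joint steady state, 1868 to 1985 in skin migrated and 2635 to 2683 in skin steady state libraries). All 6 gamma delta and invariant T cell markers rose at both sites, and all 4 B cell markers fell, from 3262 to 3366 CPM in joint steady state and 2122 to 2746 in skin steady state libraries to 532.6 to 728 and 79.4 to 153.7 CPM. In joint 5 of 6 dendritic cell markers (488.4 to 791.7 CPM at steady state and 960.8 to 2226 in migrated libraries) and 5 of 9 mast cell and basophil markers (7.50 to 9.45 and 34.6 to 281 CPM) rose, and 4 of 5 neutrophil markers fell (378 to 758 and 31.0 to 79.6 CPM). In skin 3 of 6 dendritic cell markers rose and 1 fell (498.7 to 610.2 and 1477 to 1953 CPM), and 4 of 5 macrophage and monocyte markers (49.9 to 76.9 and 277.4 to 495.7 CPM) and 2 of 9 mast cell and basophil markers (5 to 5.81 and 21.5 to 26.1 CPM) rose. The part of these cell types in the members' values was not tested.

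At steady state, Gzmb was the 1 gene of the 10 that differed between the joint (PBS, KG) and the skin (Naive) libraries: it was 3.55-fold higher in joint (log2 1.83 ± 0.15, edgeR adjusted p = 7.05e-06), where 1.40% of all genes tested were called higher. Gzmk (0.99 on the log2 scale, edgeR adjusted p = 0.159) also had joint libraries above all skin ones, and Ncr1 (−0.89 ± 0.29, edgeR adjusted p = 0.0827) and Eomes had them below. The other 6 overlapped, and 31.1% of all genes tested did not overlap in either direction. The rise of Gzmb over steady state was smaller in joint than in skin: the interaction was −2.02 ± 0.20 on the log2 scale (edgeR adjusted p = 6.82e-05), and Gzmb was again the 1 gene of the 10 to pass, where 0.696% of all genes tested were called lower. Klrb1c (0.97 ± 0.34, edgeR adjusted p = 0.0909) and Ncr1 (1.06 ± 0.40, edgeR adjusted p = 0.108) pointed the other way without passing. Leaving out any 1 library kept both calls of Gzmb, but with all 18 libraries in 1 fit they were lost (log2 1.84, edgeR adjusted p = 0.0033 and log2 −2.03, edgeR adjusted p = 0.0174). Between the steady state groups all 5 neutrophil markers (378 to 758 CPM in joint and 9.41 to 16.0 in skin libraries) and 3 of 5 macrophage and monocyte markers (375.1 to 535.1 and 49.9 to 76.9 CPM) were also higher in joint, as was 1 of 9 mast cell and basophil markers. In the interaction 3 of 5 macrophage and monocyte markers and 1 of 9 mast cell and basophil markers passed as lower, and 2 of 4 B cell markers and 1 of 6 dendritic cell markers as higher. The part of these shifts in the values of Gzmb was not tested. Any separate handling of the inflamed skin libraries also enters the interaction and cannot be told apart from it.

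Ratios within a library do not depend on library size, and those given here were chosen with the levels known and carry no test. The ratio of Gzmb to Prf1 in RPKM was 1.68, 2.43 and 2.54 in joint nonmigrated and 6.31, 6.21 and 9.91 in joint migrated libraries. It was 10.49, 10.3 and 6.52 in skin nonmigrated and 10.8, 8.27 and 5.15 in skin migrated libraries. At steady state it was 0.836, 0.918 and 0.953 in joint and 0.261, 0.302 and 0.192 in skin libraries. Each steady state library thus had more Prf1 than Gzmb transcript per length and each inflamed library the reverse, with joint nonmigrated libraries between the steady state and all other inflamed ones.

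Gzma stood to Prf1 in a similar way, at mean ratios of 1.86 ± 0.11 (SD, n = 3) in joint nonmigrated, 4.69 ± 1.43 in joint migrated, 4.99 ± 2.62 in skin nonmigrated, 5.71 ± 1.87 in skin migrated, 0.837 ± 0.132 in joint steady state and 0.781 ± 0.148 in skin steady state libraries. Klrd1 and Klrc1, whose products CD94 and NKG2A pair in 1 inhibitory receptor, had ratios of 1.17 ± 0.05 in joint nonmigrated and 1.92 ± 0.24 in joint migrated, 1.80 ± 0.77 in skin nonmigrated and 3.46 ± 0.67 in skin migrated, and 6.30 ± 1.02 and 10.65 ± 2.88 in joint and skin steady state libraries. The excess of Klrd1 over its partner was thus largest where inflammation was absent. Eomes and Tbx21, the gene of the related factor T-bet, had ratios of 0.403 ± 0.091 and 0.493 ± 0.161 in joint and skin nonmigrated libraries against 0.997 ± 0.215 and 1.14 ± 0.19 in the migrated ones, and 1.17 ± 0.12 and 1.71 ± 0.24 at steady state. All 6 tissue libraries had less Eomes than Tbx21 per length, and every node library had a higher ratio than any of them.

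**Figure D3:**
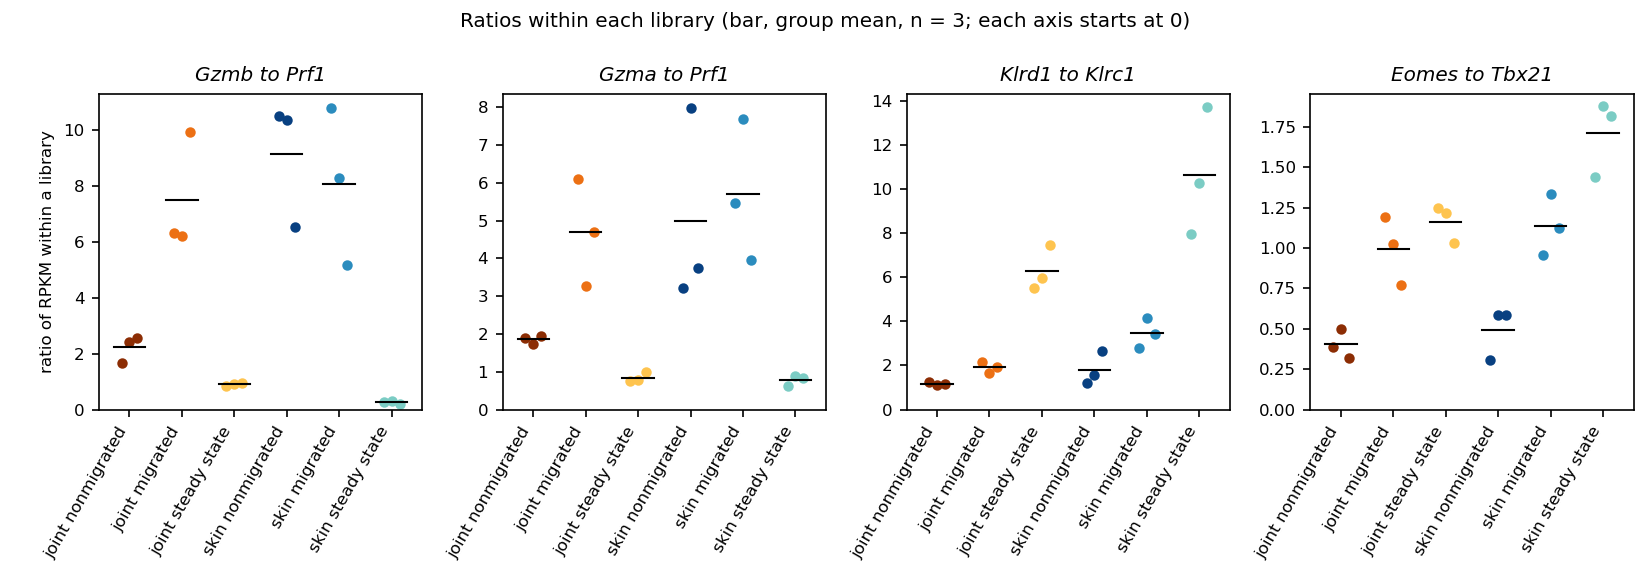
Ratio of RPKM values within each library (linear axes from 0) for Gzmb to Prf1, Gzma to Prf1, Klrd1 to Klrc1 and Eomes to Tbx21, each point a library and each bar the mean of 3. Gzmb to Prf1 runs from 0.192 in a skin steady state library to 10.8 in a skin migrated one, and Klrd1 to Klrc1 from 1.12 in joint nonmigrated to 13.7 in skin steady state libraries.

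Because T cell transcripts shifted between groups, the 10 genes were also set against Cd3e, which encodes a chain of the T cell receptor complex, in the same library. Cd3e itself was at 16.7, 28.3 and 34.3 CPM in joint nonmigrated and 242.7, 205.9 and 159.9 CPM in joint migrated libraries, and rose (log2 2.94, edgeR adjusted p = 4e-05). Per Cd3e, 8 of the 10 genes, all but Gzmk and Eomes, were lower in every joint migrated than in every joint nonmigrated library, but so were 90.3% of all genes tested. Gzmb per Cd3e had means of 3.42 in joint nonmigrated and 2.01 in joint migrated libraries, and Prf1 per Cd3e means of 1.61 and 0.277. Eomes per Cd3e overlapped, at 0.403, 0.384 and 0.303 against 0.462, 0.441 and 0.291.

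In skin, Gzmb, Prf1 and Klrk1 per Cd3e were lower in all migrated libraries and Eomes was higher, so that 4 of the 10 did not overlap in either direction, against 66.7% of all genes tested. Gzmb per Cd3e was at a mean of 6.86 in skin nonmigrated and 2.34 in skin migrated libraries, and Eomes per Cd3e at 0.080, 0.274 and 0.244 against 0.325, 0.519 and 0.552. Against steady state, Cd3e differed by 0.00 (joint, edgeR adjusted p = 0.987) and −0.51 (skin, edgeR adjusted p = 0.00328) on the log2 scale. Per Cd3e, 9 of the 10 genes, all but Prf1, were higher in all joint migrated than in all joint steady state libraries (25.0% of all genes tested), and all 10 were in skin (55.9%). Cd8a, which marks most conventional cytotoxic T cells, did not rise with them: it was at a mean of 183.7 CPM in joint migrated and 332.6 in joint steady state (log2 −0.82, edgeR adjusted p = 0.00138) and at 230.2 and 431 CPM in the skin groups (−0.87, edgeR adjusted p = 0.000599). Gzmb per Cd8a was at 2.01 and 1.81 in joint and skin migrated libraries and at 0.132 and 0.0285 at steady state.

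**Figure D4:**
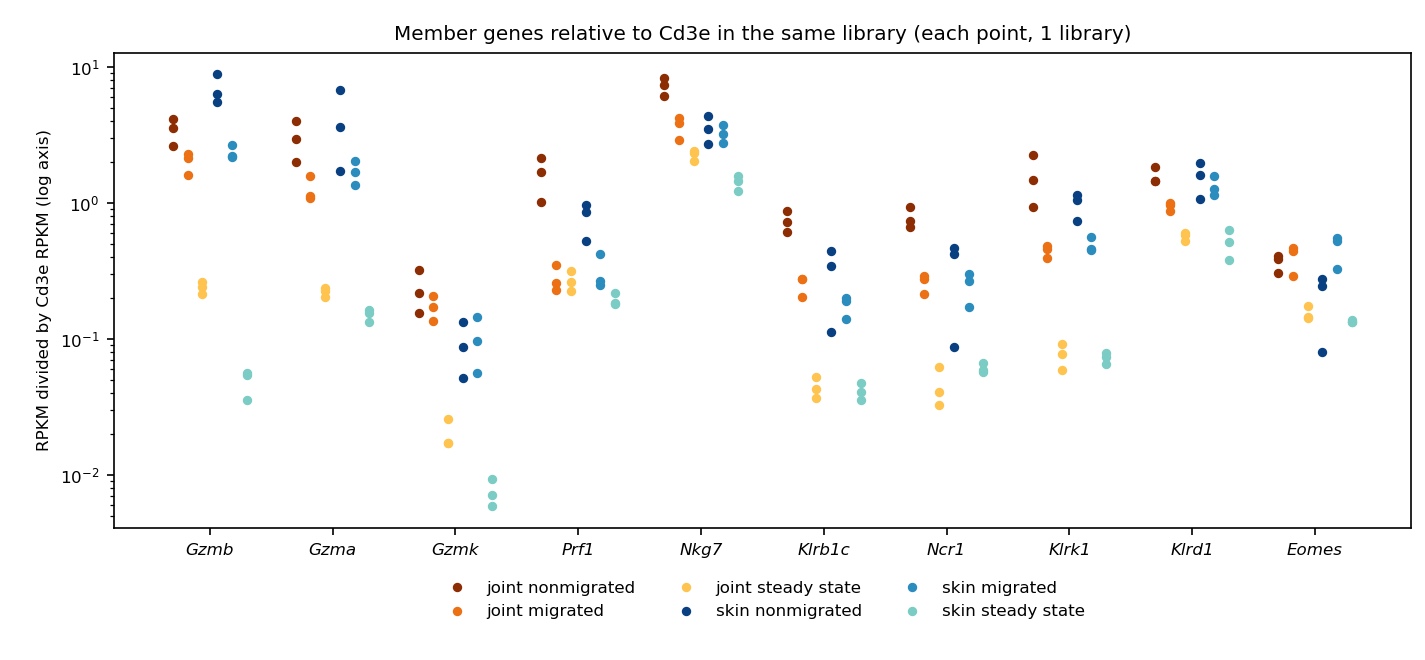
RPKM of each of the 10 genes divided by that of Cd3e in the same library (log axis), by group, each point a library. Gzmb per Cd3e has means of 3.42 and 6.86 in joint and skin nonmigrated cells, 2.01 and 2.34 in migrated cells and 0.238 and 0.0487 at steady state.

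Other NK receptor genes, 24 in all, were examined as a list. For this list and those below, calls over all genes tested were as follows. With migration, of 16777 genes, 1476 were higher and 2110 lower in joint, and 1424 and 2084 in skin. Between the nonmigrated groups 192 were higher and 319 lower in joint. Over steady state, of 17107 genes, 2116 were higher and 598 lower in joint, and 2842 and 1455 in skin. In joint migrated against nonmigrated libraries 10 rose and 2 fell, with a median log2 change of 1.98 (0.02 over all genes tested). Those with the largest changes were Klrg1 (3.19 ± 0.37), an inhibitory receptor of differentiated effectors, Cd96 (3.02 ± 0.37), a receptor of nectin family ligands, Cd160 (2.95 ± 0.37) and Crtam (2.68 ± 0.39). In skin 2 rose and 3 fell (median 0.75, 0.01 over all genes): Cd160 (2.40 ± 0.37) rose, as did Klrg1 (2.25 ± 0.36), which is named outside the rule for naming genes after its value was seen, and Klrb1b (−3.11 ± 0.16), Itga1 (−2.83 ± 0.22) and Cd244a (−2.28 ± 0.16) fell. All 24 had lower values in joint than in skin nonmigrated libraries (median −0.99), of which 2, Cd244a (−1.24 ± 0.15) and Klrb1b (−1.03 ± 0.15), passed. These values include skin nonmigrated replicate 2, and the 24 genes are not given without it. Without that library Klrb1c (0.35) and Ncr1 (0.41) of the 10 turned positive in this comparison.

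Against steady state 20 of the 24 rose in joint (median 2.26) and 17 in skin (median 1.60), and none fell. Of all genes tested, 12.4% rose in joint and 16.6% in skin. Klri1, a lectin-like receptor of NK cells, rose by 4.28 ± 0.34 in joint and 4.32 ± 0.36 in skin on the log2 scale, and Klrg1 by 3.31 ± 0.25 and 3.80 ± 0.26. Joint was further led by Klra8 (2.76 ± 0.32) and Klra4 (2.74 ± 0.29), of the Ly49 family, and skin by Slamf7 (3.28 ± 0.20) and Itga1 (2.88 ± 0.29). Ly49 genes are near-identical copies whose reads the counting could split, so that their single values are uncertain. Between joint and skin migrated libraries none of the 24 differed past the threshold.

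**Figure D5:**
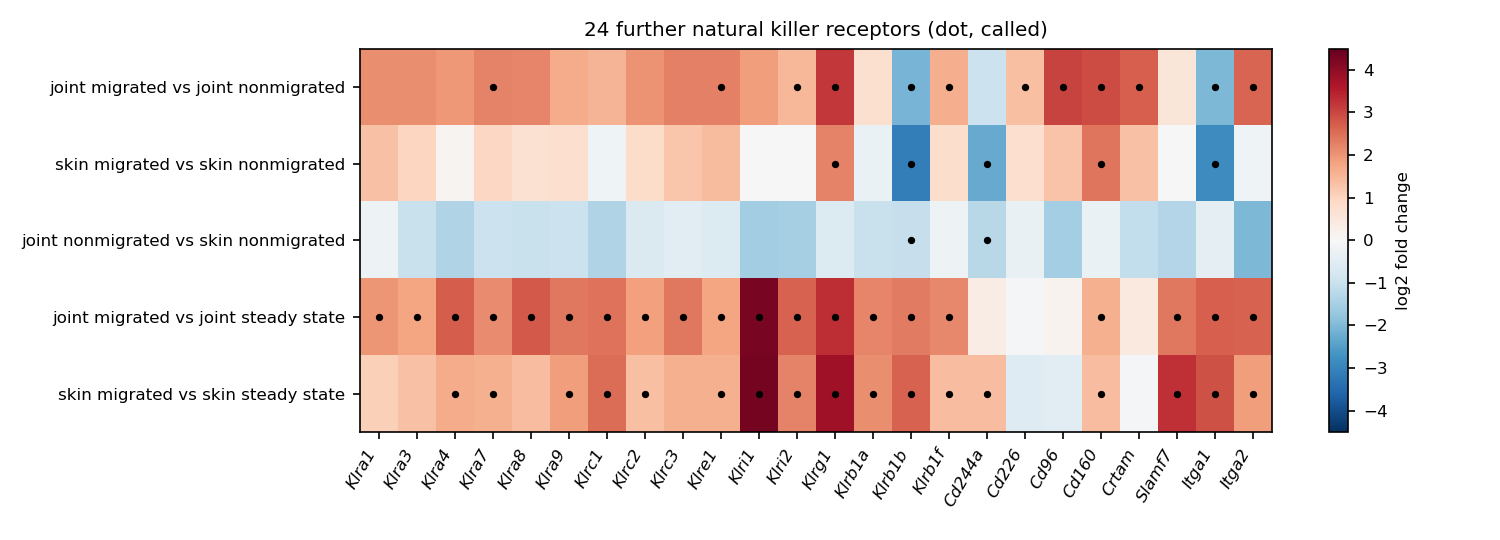
Log2 fold change (colour, scale bar in log2 units) of the 24 other NK receptor genes in 5 comparisons, with a dot where a gene passed the threshold. Dots mark 12 genes for joint migration, 5 for skin migration, 2 between the nonmigrated groups, 20 for joint and 17 for skin migrated against steady state.

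Of 11 other granule and death ligand genes tested in the inflamed libraries, 4 rose and 1 fell with joint migration. Gzmm (3.55), Ctsw (2.54), Cst7 (2.01), whose cystatin F restrains granzyme processing, and Tnfsf10 (1.41), the gene of the death ligand TRAIL, rose on the log2 scale. In skin Gzmm rose (2.89) and Srgn (−2.37), the gene of the granule proteoglycan serglycin that binds granzymes and is made by many leukocytes, fell. Srgn was at means of 882.5 and 3279 CPM in joint and skin nonmigrated libraries (log2 −1.90, passed). Against steady state 3 of 8 tested rose in joint, namely Gzmc (2.60), Lamp1 (1.66) and Fasl (1.19), and 4 in skin: Lamp1 (2.21), Srgn (1.61), Fasl (1.18) and Cst7 (1.09).

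Of 9 genes of granule processing, release and inhibition, 3 rose and 1 fell with joint migration, 1 rose and 1 fell with skin migration, and 4 rose over steady state at each site. Serpins of this list shield cytotoxic cells from their own granzymes, but which cells of these libraries held their transcripts was not tested. Serpinb9, which encodes an inhibitor of granzyme B, was at means of 24.8 CPM in joint nonmigrated and 246.3 in joint migrated libraries (log2 3.32, edgeR adjusted p = 0.00014), at 106.1 and 281.4 CPM in the skin groups (1.40, edgeR adjusted p = 0.0193) and at 24.6 and 19.1 CPM at steady state. Over steady state it rose by 3.36 in joint and 3.91 in skin, Serpinb9b by 4.83 and 6.08 and Serpinb6b by 4.26 and 5.24 on the log2 scale. Ctsc, whose protease activates granzymes and neutrophil proteases, fell with migration (−3.18 in joint and −2.78 in skin), from means of 1707 and 1326 CPM to 187.9 and 193.1, as neutrophil and macrophage markers did.

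Among 9 adaptor and proximal kinase genes, those of T cells and those shared with myeloid cells parted. With joint migration Sh2d1a (2.95), Cd247 (2.74) and Zap70 (2.72) rose and 4 genes fell, among them Fcer1g (−3.50). Tyrobp, whose product DAP12 signals for NK receptors and is abundant in myeloid cells, fell from a mean of 815.9 to 140.1 CPM (log2 −2.54, edgeR adjusted p = 1.93e-06). With skin migration 1 rose and 4 fell, led by Fcer1g (−3.60), Sh2d1b1 (−2.83), Syk (−2.15) and Tyrobp (−2.12). Over steady state Tyrobp rose by 1.46 in joint and 3.05 in skin and Fcer1g by 1.04 and 3.17, and Syk fell in joint (−1.01). Hcst, whose product DAP10 is the signalling partner of NKG2D, did not pass in any of these comparisons: its log2 differences were 1.02 (edgeR adjusted p = 0.00289) and 0.64 (edgeR adjusted p = 0.0368) with migration in joint and skin and 0.34 (edgeR adjusted p = 0.179) and −0.68 (edgeR adjusted p = 0.0102) over steady state. Klrk1 per Hcst, in RPKM, was accordingly at a mean of 0.0841 ± 0.0315 in joint and 0.0795 ± 0.0146 in skin steady state libraries and at 0.313 to 0.842 in the inflamed groups.

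Of 10 transcription factor genes of cytotoxic lymphocytes besides Eomes, 2 rose and 1 fell with migration at each site. These were Tox (3.03 in joint and 1.60 in skin), Ikzf3 (2.78 and 1.84) and Zeb2, which fell (−3.87 and −3.92) and is also a macrophage gene. Tbx21 was at means of 14.5 and 49.3 CPM in joint nonmigrated and migrated libraries (log2 1.77, edgeR adjusted p = 0.00134) and at 21.5 and 48.1 CPM in skin (1.16, edgeR adjusted p = 0.015). Id2 (−1.79) and Runx3 (−1.30) were lower in joint than in skin nonmigrated libraries. Over steady state 4 rose in joint, namely Id2 (2.67), Prdm1 (2.65), Nfil3 (1.76) and Tbx21 (1.59), and in skin 6 rose and 1 fell, with Nfil3 (3.86), Prdm1 (3.33), Id2 (3.20) and Tbx21 (1.84) the largest.

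Genes of ligands of NKG2D, of CD94 with its NKG2 partners and of the NKR-P1 family to which NK1.1 belongs, 8 in all, moved in both directions. With migration, the NKG2D ligand genes Raet1d (−4.74 in joint and −4.49 in skin) and Raet1e (−3.64 and −3.60) fell, and Clec2i (1.58 and 1.78) with Clec2d (1.29) in joint or Ulbp1 (1.71) in skin rose. Over steady state Ulbp1 rose (1.56 in joint and 1.68 in skin), and H60c, an NKG2D ligand gene of skin, fell (−5.52 in skin). Neither nonmigrated nor migrated cells differed between the sites in any ligand gene past the threshold.

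Cytokine, cytokine receptor and trafficking genes that act on or are made by these cells numbered 18. With joint migration 6 rose and 3 fell, with Il15ra (2.74), Ccl5 (2.66) and Il2rb (2.47) among the first and Ccl3 (−3.52) among the last. In skin 2 rose and 4 fell, led by Il12a (−7.08), Ccl3 (−6.71), Ccl4 (−4.76) and Il18 (−3.61). Between the nonmigrated groups Ccl3 (−3.56), Il12rb2 (−2.90), Ccl4 (−2.84) and Il12rb1 (−1.39) were lower in joint. Over steady state 15 rose in joint and 13 in skin, and 1 fell at each site. Il12b (8.68 in joint and 8.85 in skin) and Il15 (4.54 and 5.98), whose products drive NK cell activation and survival, were among the largest, while Il12a fell in skin (−6.09).

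Ifng, the cytokine gene that cytotoxic and Th1 cells share, was at 9.82, 16.8 and 27.4 CPM in joint nonmigrated and 22.04, 26.7 and 21.7 CPM in joint migrated libraries (log2 0.38, edgeR adjusted p = 0.556). In skin it was at 60.5, 96.0 and 14.9 CPM in nonmigrated and 31.0, 18.9 and 24.4 CPM in migrated libraries (−1.21, edgeR adjusted p = 0.0689). Over steady state, at means of 3.28 (joint) and 2.80 CPM (skin), it rose by 2.87 (edgeR adjusted p = 7.28e-08) and 3.18 (edgeR adjusted p = 1.67e-08) on the log2 scale. The joint groups overlapped, as did the skin groups, and every inflamed library was above every steady state one.

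Correlations of log2(CPM + 1) over the 18 libraries, which share group differences and depth, give the likeness of patterns as a description. Gzma and Gzmb were alike (Pearson r = 0.927), as were Klrb1c and Ncr1 (0.957), and Gzma and Klrk1 (0.947). Nkg7 was like Eomes (0.921), whereas Gzmb had lower values with Eomes (0.226) and Prf1 (0.334). After subtracting group means, the values of Gzmb with Eomes and Prf1 were higher (0.544 and 0.652) and that with Gzma lower (0.643). Among 13549 genes, those most like Klrk1 were Klri2 (0.982), Sema3f (0.972) and Ccl22 (0.968). Those most like Eomes were Klra13-ps (0.980), Cd160 (0.969) and Baiap3 (0.963), and those most like Gzmb Ankrd33b (0.968), Pcgf2 (0.957) and Gm17055 (0.956). Nkg7 was nearest to Ccdc92 (0.975), Cst7 (0.949) and Gata3 (0.949), and Gzma to Klri2 (0.959), Klrk1 (0.947) and Sema3f (0.945). For Klrb1c the nearest were Ncr1 (0.957), Klra4 (0.956) and Clip3 (0.954), and for Ncr1 they were Klra9 (0.958), Klrb1c (0.957) and Klra8 (0.954). Klrd1 was nearest to St3gal6 (0.955), Stat4 (0.951) and 1110032F04Rik (0.950), and Gzmk to Ret (0.940), Sox13 (0.936) and Pvrig (0.932). Prf1 had no close match, the nearest being Nod1 (0.830), Cipc (0.731) and Fchsd1 (0.728).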

How the data were processed

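The deposited values are raw read counts per Ensembl gene (release 87). Per the methods, the authors trimmed 100 bp paired reads with Trim Galore, aligned them to mm10 with TopHat2 and counted them with HTSeq. The versions are not given in the sources used here. The submitters' processing notes also name FastQC, Cufflinks and DESeq2. All 18 columns matched a sample by its labels (0 did not). The 5 summary lines were removed (no feature 0.0925 to 0.562%, ambiguous 1.84 to 2.37% and not uniquely aligned 9.24 to 12.75% of reads). Symbols, positions and exon lengths came from GENCODE M21 (49326 of 49585 IDs matched) and promoters from RefSeq, which held 9 of the 10 genes.

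Counts were tested with edgeR 4.0.16 (R 4.3.3), by the quasi-likelihood F test on TMM-scaled library sizes, after removing low genes (filterByExpr, minimum count 10) and with Benjamini-Hochberg adjustment over all genes tested. The 12 inflamed libraries formed 1 fit (16777 genes) and the 12 node libraries another (17107 genes). A gene was called at adjusted p under 0.001 with absolute log2 fold change over 1. The first threshold follows the flags of a supplementary gene table. The paper's methods text gives adjusted p under 0.05 with the same fold limit, which was an alternative. Each SE was derived from a fold change and its F statistic. Further alternatives were DESeq2 1.42.0 (size factors and Wald test), no filter on low counts, a replicate block, other sets of libraries and leaving out each library. Tests were checked on simulated data. All 10 genes were named throughout, as were listed direct partners of theirs. Of each other list the text gives up to 4 called genes with the largest absolute change, and per gene the 3 most alike genes with a mean of at least 1 CPM. The genes, lists and ratios were chosen with earlier results of these data known. Same-numbered libraries of 2 groups had correlated deviations of −0.353 to 0.254. Between nonmigrated and migrated libraries of 1 site these were all positive, at 0.021 to 0.254 (joint) and 0.0735 to 0.173 (skin). Differently numbered libraries there had −0.218 to 0.0385 and −0.123 to 0.0294. Shared mice behind the same number are thus possible, but the sources used here state no pairs. The main fits did not use the numbers, and the replicate block did. Replicates differed beyond sampling noise in every group (chi-square per degree of freedom 14.7 to 117.1). The floor of 3 reads covers counting error only, whereas each SE also includes the spread between libraries.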

Additional observations from a re-analysis of the deposited data

Results flagged for a closer look

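A pair of results met the rule for a difference between sites in the change of a gene, both of Gzmb. Its migration change was larger in joint than in skin by 2.73 on the log2 scale (SE 0.53, edgeR adjusted p = 0.0113), with 3 of 3 joint migrated libraries above the nonmigrated ones and overlapping groups in skin. Its change over steady state was smaller in joint than in skin by 2.02 (interaction −2.02, SE 0.20, edgeR adjusted p = 6.82e-05), with all inflamed libraries above all steady state ones at both sites. The steady state libraries differ in title (PBS and KG in joint, Naive in skin) as well as in site, and these cannot be told apart. Any separate handling of the inflamed skin libraries enters both results and cannot be told apart either. Joint minus skin, Gzmb was at −0.18 in migrated, 1.83 in steady state and −2.92 in nonmigrated libraries on the log2 scale. With all 18 libraries in 1 fit the steady state interaction was no longer called (edgeR adjusted p = 0.0174). Groups of 3 were too small for a test of single outlying libraries.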

How the results depend on the processing

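Of 1690 log2 fold changes of the 10 genes under alternatives, 1587 kept their side of the threshold, 51 lost it, 52 gained it and none of the called values changed sign. Of the 10 genes, the number called with joint migration (3) was 9 at adjusted p under 0.05, 7 with DESeq2's Wald test, 6 with no filter, 5 with only the groups compared and 6 with all 18 libraries. With skin migration (0) it was 2, 1 and 1 under the first 3 of these and 1 with all 18. Between nonmigrated groups (1) it was 4, 4 and 3, then 0 with only the groups compared and 4 with all 18. For the migration interaction (0) it was 1, 1 and 1. With all 18 libraries it was 4 for skin migrated against steady state (7), 0 between steady state groups (1) and 0 for the interaction in nodes (1). In joint migrated against steady state, Eomes lost its call with all 18 libraries (edgeR adjusted p = 0.00708) and with only the groups compared (edgeR adjusted p = 0.00316). Calls over all genes with all 18 libraries are not given here, so that losses particular to the 10 genes cannot be told from general ones. Leaving out 1 library gave 1 to 7, 0 to 1, 0 to 4, 0 to 0 and 0 to 1 in the inflamed comparisons (joint migration, skin migration, nonmigrated groups, migrated groups, interaction), and 6 to 7, 5 to 7, 1 to 1 and 1 to 1 in the node comparisons (joint, skin, between steady state groups, interaction). With the replicate block, 0 of the 10 were called between nonmigrated groups (Gzmb −2.82, edgeR adjusted p = 0.00183), and no other call of the 10 changed; over all genes the block gave 2826 calls against 3586 with joint migration. The numbers share no stated batch or day. Over all genes, counts at 0.05 against the main ones were 5757 to 3586, 5940 to 3508, 2400 to 511, 191 to 0 and 1029 to 20 in the inflamed comparisons, and 4143 to 2714, 6249 to 4297, 665 to 246 and 1045 to 152 in the node comparisons. In the inflamed comparisons DESeq2's Wald test called 4694, 4668, 1550, 177 and 661 of 16777 genes. With no filter 4121, 4048, 1014, 61 and 290 of 29325 genes were called. Fits of only the groups compared called 3466 of 16519 (joint migration), 2111 of 14786 (skin migration) and 0 of 15385 (nonmigrated groups). Leaving out 1 library gave 2537 to 4048 calls with joint migration and 120 to 1372 between nonmigrated groups. Plain CPM moved 10 of 60 group means beyond 1 SD, and DESeq2's size factors 0 of 60. Depth limits Gzmk most, with 19 reads in its lowest library. The causes of these changes were not tested.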
